A study of Mus musculus with 14 samples.

Results

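The serum amyloid A (SAA) genes of the mouse are a cluster of 4 genes, Saa1, Saa2, Saa3 and Saa4, taken here by their symbols. All 4 were among the 54532 genes of the liver count table, and 1 of them, Saa3, was among the 16481 genes listed for cultured pancreatic stellate cells (PSCs). Mice aged 8 to 12 weeks received 100000 KPCY pancreatic cancer cells in the pancreatic tail, and livers were taken 20 days later from 3 groups: WT mice carrying floxed Piezo1 (n = 2), Trpv4-/- mice, called TRPV4-KO (n = 3), and WT mice given the TRPV4 antagonist GSK2193874, called GSK219, at 10 mg/kg by daily gavage (n = 3). The Trpv4 deletion was in every cell of the host, whereas the injected cells kept a functional TRPV4, and whether the WT mice were gavaged with carrier was not stated. Mouse PSCs from 3 preparations were each cultured with DMSO and with Yoda1, an agonist of the PIEZO1 channel, at 25 uM (n = 3 each).

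SAA1 and SAA2 are the acute-phase SAA proteins. Hepatocytes make them when interleukin-6, interleukin-1 and TNF act through STAT3, NF-kB and C/EBP factors, and they leave the liver bound to high-density lipoprotein (HDL). SAA4 is the constitutive SAA of hepatocytes, and Saa3 is the form made mostly outside hepatocytes, by macrophages, fat cells, mesothelium and activated fibroblasts.

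The cluster lay on chromosome 7 (GRCm38). Saa3 (ENSMUSG00000040026, 46711998 to 46715700), Saa4 (ENSMUSG00000040017, 46727998 to 46732603) and Saa1 (ENSMUSG00000074115, 46740497 to 46742980) were on the minus strand. Saa2 (ENSMUSG00000057465, 46751790 to 46754313) was on the plus strand, head to head with Saa1. Each first-listed coding transcript had 4 exons. Coding sequences of Saa1 and Saa2 were 95.1% identical, against 76.4% for Saa1 and Saa3 and 66.8% for Saa1 and Saa4. Of the 50-base windows of the Saa1 transcript, 13.2% were also found in Saa2 transcripts, 1.61% in Saa3 and 0 in Saa4. How reads matching both Saa1 and Saa2 were assigned is not given in the sources used here, so the split between those genes is uncertain and their summed counts are given too.

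The 250 bases before each RefSeq start site (GRCm38.p6) are shown because the levels of Saa1 and Saa2 in WT livers lay apart from those of the other groups, whereas those of Saa3 overlapped. Capitals mark matches on either strand to the C/EBP letters TTGCNNAA or the NF-kB motif. Saa1 is from 46742981 to 46743230, Saa2 from 46751583 to 46751832, Saa3 from 46715677 to 46715926 and Saa4 from 46732604 to 46732853, each 5′ to 3′ along its gene.
Saa1: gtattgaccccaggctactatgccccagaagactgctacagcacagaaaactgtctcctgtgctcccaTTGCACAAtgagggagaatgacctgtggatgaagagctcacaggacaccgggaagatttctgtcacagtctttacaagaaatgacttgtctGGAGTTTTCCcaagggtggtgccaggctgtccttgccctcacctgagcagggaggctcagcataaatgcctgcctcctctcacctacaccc
Saa2: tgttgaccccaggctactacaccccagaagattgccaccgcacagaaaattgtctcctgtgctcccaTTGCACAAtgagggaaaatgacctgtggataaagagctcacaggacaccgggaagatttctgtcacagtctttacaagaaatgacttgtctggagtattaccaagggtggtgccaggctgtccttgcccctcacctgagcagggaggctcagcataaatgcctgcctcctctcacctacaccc
Saa3: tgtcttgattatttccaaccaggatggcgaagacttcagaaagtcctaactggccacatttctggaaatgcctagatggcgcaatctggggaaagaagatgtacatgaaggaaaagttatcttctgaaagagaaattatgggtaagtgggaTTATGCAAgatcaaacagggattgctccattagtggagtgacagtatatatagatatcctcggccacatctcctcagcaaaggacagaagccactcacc
Saa4: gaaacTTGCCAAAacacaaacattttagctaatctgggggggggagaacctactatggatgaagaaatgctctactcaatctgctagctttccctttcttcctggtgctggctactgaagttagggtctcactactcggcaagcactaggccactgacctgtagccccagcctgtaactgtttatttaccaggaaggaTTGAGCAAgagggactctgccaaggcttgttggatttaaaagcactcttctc

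The Saa1 and Saa2 windows were 94.8% identical, and Saa1 and Saa3 were 50.2% identical. The same C/EBP match stood 182 to 175 bases before the start of Saa1 and 183 to 176 bases before that of Saa2. Saa3 had 1 C/EBP match on the opposite strand, 99 to 92 bases before its start, and Saa4 had 2. The NF-kB motif matched only the Saa1 window among the 4, at 91 to 82 bases before the start. Neither the STAT letters TTCNNNGAA nor the TATA letters TATAAA matched any of the 4 windows, and no matches overlapped. Of 32851 promoter windows of that length, 9.56% held a C/EBP match, 9.55% an NF-kB match, 7.02% a STAT match and 12.4% a TATA match. A match is a description of letters and not of a bound site.

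The livers held 15567031 to 17395299 counts each, and 15118 genes were tested. Trpv4, the targeted gene, had 43 and 53 counts in WT livers, 15, 5 and 23 in TRPV4-KO livers and 20, 30 and 36 in GSK219 livers, and its difference between WT and TRPV4-KO was not called (edgeR log2 fold change 1.71 ± 0.50 SE, adjusted p = 0.161). Each group held livers with Xist reads (WT 1, TRPV4-KO 3 and GSK219 3) and livers with Y-linked reads (the other 5), and values within these kinds are given where they bear on a member. A difference was called at an adjusted p below 0.05 with a log2 fold change over 1. Levels are in CPM, counts scaled to library size with TMM factors, and in whole liver fewer cells of a type cannot be told apart from less RNA per cell.

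Saa1 and Saa2 stood at 9.50 to 26.4 times the level of the other groups in WT livers. Saa1 stood at 5981 and 4499 CPM in the WT livers. It stood at 632 CPM, 468 CPM and 554 CPM in the TRPV4-KO livers, and at 300.2 CPM, 740.2 CPM and 194 CPM in the GSK219 livers. Both WT livers lay above all 6 others, and the TRPV4-KO and GSK219 livers overlapped. Saa2 was at 5277 and 3962 CPM in the WT livers. In the TRPV4-KO livers it was at 203 CPM, 184 CPM and 289.7 CPM, and in the GSK219 livers at 119 CPM, 322 CPM and 82.8 CPM. Again no liver of the other groups reached the WT range, and GSK219 2 was the highest of the treated livers for both genes. Together the pair made up 1.17% and 0.859% of all counts in the WT livers, and 0.0286% to 0.108% in the other 6.

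**Figure D1:**
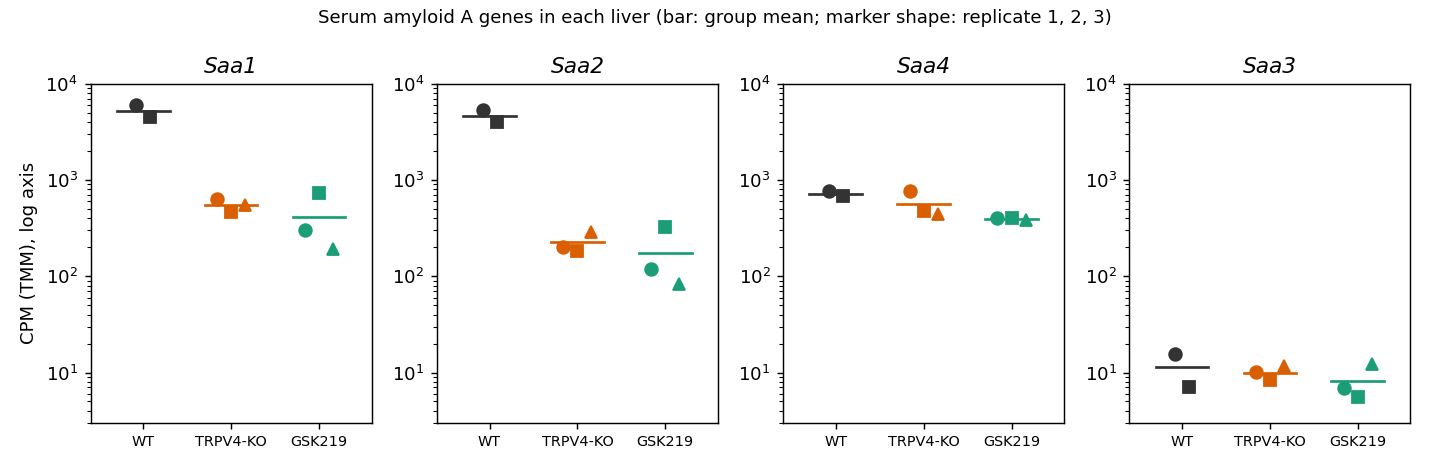
CPM of each SAA gene (log axis) in the 2 WT, 3 TRPV4-KO and 3 GSK219 livers, with points for livers and bars for group means. Saa1 and Saa2 in both WT livers lie above all other livers, Saa4 of WT overlaps TRPV4-KO, and Saa3 lies near 10 CPM with overlapping groups.

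Between WT and TRPV4-KO livers, 1 of the 4 members was called, against 0.265% of all genes tested. Saa2 was called, with an edgeR log2 fold change of 4.36 ± 0.56 (SE), or 20.5-fold (95% interval 8.25 to 50.8), and an adjusted p of 0.0375. Saa1 differed by 3.25 ± 0.50 on the log2 scale, or 9.50-fold (4.23 to 21.3), and missed the threshold at an edgeR adjusted p of 0.0611. The summed counts of Saa1 and Saa2 were called, at 3.66 ± 0.52, or 12.7-fold, with an edgeR adjusted p of 0.0442, a call lost without WT 1 (0.35), WT 2 (0.148), TRPV4-KO 1 (0.208) or TRPV4-KO 2 (0.203). The groups did not overlap for Saa1 and Saa2, as was so for 33.2% of all genes. The median log2 fold change was 1.80 over the 4 members and -0.01 over all genes. That median was near no member, since Saa4 was at 0.36 and Saa3 at 0.17, far below Saa1 and Saa2.

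These calls were near the threshold. The Saa2 call was lost on leaving out WT 1 (edgeR adjusted p = 0.28), WT 2 (0.126), TRPV4-KO 1 (0.183) or TRPV4-KO 2 (0.185), while its log2 fold change stayed between 4.15 and 4.58 over these and all other settings. DESeq2 called both Saa1 (adjusted p = 2.64e-10) and Saa2 (adjusted p = 3.07e-17), in a fit that called 3.20% of genes.

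Between WT and GSK219 livers no member and no gene was called by edgeR (0% of 15118), although 3 members and 1242 genes had an unadjusted p below 0.05. The differences were of the same order as above. Saa2 was higher in WT by 4.72 ± 0.57 on the log2 scale, or 26.4-fold (10.5 to 66.5), with an edgeR adjusted p of 0.172. Saa1 was higher by 3.67 ± 0.51, or 12.7-fold (5.60 to 28.9), with an edgeR adjusted p of 0.22. Groups did not overlap for Saa1, Saa2 and Saa4, as for 27.3% of genes. DESeq2 called Saa1 (adjusted p = 1.19e-12) and Saa2 (adjusted p = 8.01e-20) with 0.462% of genes. Without GSK219 2, edgeR called both at an adjusted p of 0.012 and no other gene (0.0133% of genes), with log2 fold changes of 5.51 for Saa2 (45.7-fold) and 4.41 for Saa1 (21.2-fold). The WT livers served in both comparisons, so these are not independent of each other.

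Between TRPV4-KO and GSK219 livers no member was called, against 0.0992% of genes. Saa1 differed by 0.42 (95% interval -0.60 to 1.45) and Saa2 by 0.37 (-0.74 to 1.47) on the log2 scale (edgeR adjusted p = 0.96 for Saa1). The upper bounds equal 2.73-fold and 2.78-fold. Without GSK219 2 both differences were 1.16 (intervals 0.57 to 1.75 for Saa1 and 0.52 to 1.80 for Saa2), not called by edgeR (adjusted p = 0.558 and 0.711).

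**Figure D2:**
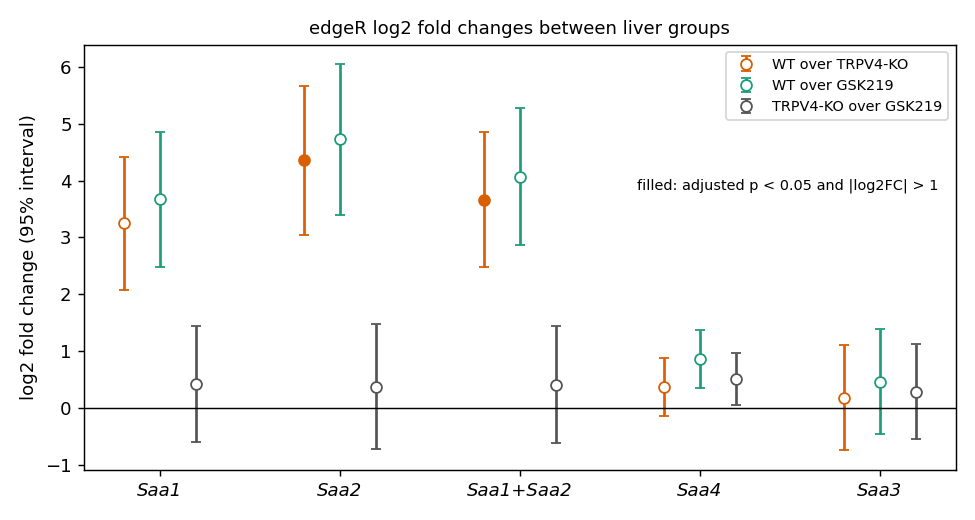
edgeR log2 fold changes with 95% intervals for each SAA gene and for the summed counts of Saa1 and Saa2, in 3 comparisons of liver groups. Filled points passed the call, which are Saa2 (4.36) and the sum (3.66) in WT over TRPV4-KO, and Saa3 intervals all span 0.

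Within the same kinds of liver WT was also the highest for Saa1 and Saa2. Among livers with Xist reads, Saa2 in WT 1 was 18.2 times TRPV4-KO 3 and 63.7 times GSK219 3. Among those with Y-linked reads, Saa2 in WT 2 was 20.5 times the TRPV4-KO mean and 18.0 times the GSK219 mean. For Saa1 the ratios were 10.8 and 30.8 among the former and 8.18 and 8.65 among the latter. A term for this split in the edgeR fit gave adjusted p-values of 0.0315 for Saa1 and 0.0275 for Saa2 between WT and TRPV4-KO, where it called 325 genes, and of 0.107 and 0.099 between WT and GSK219.

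Saa4, the constitutive member, was not called in any comparison. It stood at 759.7 and 684 CPM in WT livers, at 769 CPM, 478 CPM and 442 CPM in TRPV4-KO livers, and at 403 CPM, 404 CPM and 383 CPM in GSK219 livers. TRPV4-KO 1 lay above both WT livers, while all 3 GSK219 livers lay below the other 5. The log2 fold change was 0.36 ± 0.22 for WT over TRPV4-KO (edgeR adjusted p = 0.456) and 0.86 ± 0.22 for WT over GSK219 (adjusted p = 0.454). For TRPV4-KO over GSK219 it was 0.50 ± 0.20 (edgeR adjusted p = 0.791), without overlap, as for 10.2% of genes.

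Saa3, the extrahepatic member, was low in every liver. Its counts were 252 and 120 in WT livers, 160, 128 and 200 in TRPV4-KO livers and 109, 93 and 203 in GSK219 livers, or 5.62 to 15.6 CPM. All 3 groups overlapped. WT exceeded TRPV4-KO by 0.17 (95% interval -0.75 to 1.10) and GSK219 by 0.46 (-0.46 to 1.38) on the log2 scale (edgeR adjusted p = 0.873 and 0.859). The upper bounds equal 2.14-fold and 2.61-fold, whereas the lower bounds for Saa2 were 8.25-fold and 10.5-fold. Saa3 was at 11.6 to 15.6 CPM in the 3 livers with Xist reads and at 5.62 to 10.1 CPM in the 5 with Y-linked reads, without overlap, as for 12.3% of genes. Within the latter, WT 2 was 0.76 times the TRPV4-KO mean, and the direction of the WT to TRPV4-KO difference turned when WT 1 was left out (-0.50).

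The order of the levels per kilobase depended on the length used. Per kilobase of the gene length in the liver table (2478 bases for Saa1 and 2094 for Saa4), Saa1 led in both WT livers, at 6.65 and 5.56 times Saa4, and in the other 6 livers it was 0.428 to 1.55 times Saa4. The first-listed coding transcript is much shorter for Saa1 (609 bases) and as long for Saa4 (2094). Per kilobase of that transcript, a length chosen after the data were seen, Saa1 was first in all 8 livers, at 27.1 and 22.6 times Saa4 in WT livers and 1.74 to 6.30 times in the other 6. Under both lengths Saa1 stood above Saa2 and Saa3 was last in all 8 livers, and the multiple of Saa1 over Saa4 was higher in both WT livers than in the other 6.

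The acute-phase members of hepatocytes, Saa1 plus Saa2, were set against Saa3 within each liver, a ratio that needs no scaling between libraries. Counts of Saa1 plus Saa2 were 721 and 1205 times those of Saa3 in WT livers, 72.7 to 82.3 times in TRPV4-KO livers and 22.7 to 188 times in GSK219 livers. An exact permutation test over the 560 assignments of livers to the 3 groups gave p = 0.0286, and the Benjamini-Hochberg adjusted p over 6 such tests, 0.0571, missed 0.05. The smallest p these assignments allow is 0.00357. The same exact permutation test gave p = 0.0143 (adjusted 0.0571) for Saa1 plus Saa2 alone, p = 0.618 (adjusted 0.689) for Saa3 alone and p = 0.0643 (adjusted 0.0964) for Saa4 alone. For Saa4 against Saa3 it gave p = 0.689 (adjusted 0.689, exact permutation test).

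The ratio of Saa2 to Saa1 was chosen after its values were seen. Counts of Saa2 were 0.882 and 0.881 times those of Saa1 in the WT livers, 0.321 to 0.523 times in TRPV4-KO livers and 0.398 to 0.435 times in GSK219 livers. The exact permutation test over 3 groups gave p = 0.025 (adjusted 0.0571), which is no independent support for a pattern already seen. Both WT ratios lay above all others, and reads shared by both genes would bear on this ratio, which was not tested.

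**Figure D3:**
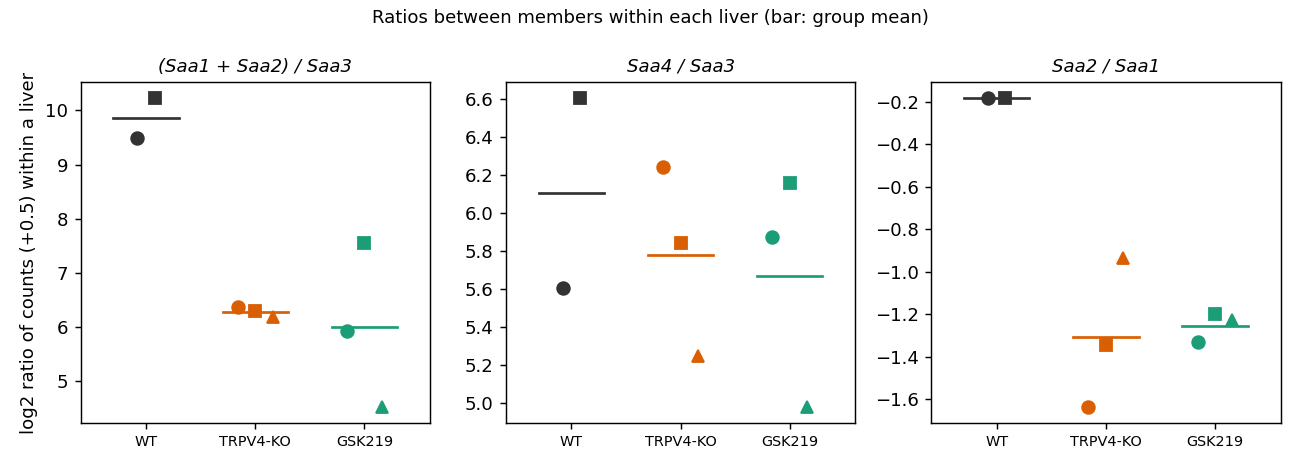
Log2 ratios of counts (with 0.5 added) between members within each liver, with points for livers and bars for group means. Saa1 plus Saa2 over Saa3 and Saa2 over Saa1 are highest in both WT livers, while Saa4 over Saa3 overlaps between the groups.

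Genes beside the cluster were not called in any comparison. The nearest 3 with at least 1 CPM on either side were Nomo1, Sergef and Saal1, then Hps5, Gtf2h1 and Gm9392. Their log2 fold changes for WT over TRPV4-KO ran from -0.48 (Gtf2h1) to 0.09 (Hps5). Saal1, whose symbol resembles the family, had 80 to 122 counts in every liver, and the pseudogene Saa-ps had 0 counts in all 8.

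The signals upstream of Saa1 and Saa2 were described from lists of pathway genes. Of interleukin-6 and STAT3 signaling 15 genes were tested, and of interleukin-1, TNF, NF-kB and C/EBP 22. By edgeR 0 were called in any liver comparison. For WT over TRPV4-KO, 2 of the 15 were below an unadjusted p of 0.05, against 17.1% of all genes. In the longer list Tnf and Il1r2 passed the filter on low counts only through the WT livers, so that the filter favored a difference in them. Of the other 20 genes in that list, 6 were below that p. Over all tested genes of each list the median log2 fold changes in that comparison were 0.18 and 0.47. Socs3, the feedback inhibitor induced by STAT3, was at 114 and 86.1 CPM in WT, 22.5 to 51.4 in TRPV4-KO and 28.5 to 50.6 in GSK219 livers, without overlap, as for 33.2% and 27.3% of genes (log2 fold change 1.46, edgeR adjusted p = 0.124, and 1.37, adjusted p = 0.454). Il1b, an interleukin-1 ligand, was at 18.7 and 15.3 CPM in WT livers and at 1.58 to 7.91 CPM in the other 6 (log2 fold change 2.41, edgeR adjusted p = 0.119, for WT over TRPV4-KO). Il6 itself had only 2 to 15 counts per liver, which is too few to place the groups. The interleukin-1 receptor Il1r1 had a log2 fold change of 1.07 and the TNF receptor Tnfrsf1a one of 0.58 for WT over TRPV4-KO (edgeR adjusted p = 0.236 and 0.183), neither called. Stat3 (0.22), Il6st (0.23), Il6ra (-0.42), Tnf (0.95), Cebpb (-0.37), Cebpd (0.65), Nfkb1 (0.30) and Rela (0.14) were also not called in WT over TRPV4-KO.

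Other acute-phase proteins of hepatocytes were described as a list. For WT over TRPV4-KO, 23 of 27 tested had a log2 fold change above 0, with a median of 0.84, 15 were below an unadjusted p of 0.05 (17.1% of all genes) and 1 was called by edgeR. That gene was Hpx, which encodes the heme carrier hemopexin, at 1.14 ± 0.16 (edgeR adjusted p = 0.0358), or 16603 and 13407 CPM in WT against 6262 to 7195 CPM. The call was lost without WT 1 (edgeR adjusted p = 0.277), WT 2 (0.0727), TRPV4-KO 1 (0.161) or TRPV4-KO 2 (0.177), and with only the 2 groups compared (0.124). Orm2, an orosomucoid gene, and Lcn2, the lipocalin-2 gene, chosen after their values were seen, had log2 fold changes of 2.48 (95% interval 0.88 to 4.08) and 2.51 (0.14 to 4.88), which overlap the interval of Saa1 and were not called (edgeR adjusted p = 0.16 and 0.271). For WT over GSK219 the median was 0.63, with 0 called by edgeR and 10 below an unadjusted p of 0.05, against 8.22% of all genes.

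Among genes that sense or carry SAA, 0 of 12 receptors and 0 of 15 HDL genes were called by edgeR in the liver comparisons, with 4 of each below an unadjusted p of 0.05 for WT over TRPV4-KO (17.1% of all genes). Median log2 fold changes for WT over TRPV4-KO were 0.66 and -0.17. The pattern receptors Tlr2 (1.36) and Tlr4 (0.97) and the formyl peptide receptor Fpr2 (edgeR adjusted p = 0.429) were not called, nor were the HDL receptor Scarb1 (-0.0046) and the HDL apolipoprotein Apoa1 (0.24).

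Hepatocyte markers did not rise with Saa1 and Saa2. The 16 hepatocyte genes summed to 72196 to 83806 CPM in WT livers, 97753 to 117757 in TRPV4-KO and 94341 to 106320 in GSK219, with a median log2 fold change of -0.24 for WT over TRPV4-KO and 0 called by edgeR (3 below an unadjusted p of 0.05). Neutrophil markers were higher in sum in WT livers. The 15 genes summed to 166 to 174 CPM in WT livers, 14.1 to 45.1 in TRPV4-KO and 22.6 to 50.02 in GSK219 livers, with up to 6 of the 15 at 0 counts outside WT. Of 14 tested, 7 passed the filter on low counts only through the WT livers, so that the filter favored a difference in them, and they are left out of the counts of unadjusted p-values (2.85% of all genes passed in this way, and at most 2 in each other list). The other 7 were all below an unadjusted p of 0.05 for WT over GSK219 (8.22% of all genes), where 0 were called by edgeR, and for WT over TRPV4-KO (17.1%). Calls were made for WT over TRPV4-KO in 3 genes (0.265% of all genes), S100a8 (3.67, edgeR adjusted p = 0.0275), which encodes a calcium-binding granulocyte protein, the surface protein gene Cd177 (4.93, adjusted p = 0.0358) and the chemokine receptor gene Cxcr2 (3.33, adjusted p = 0.0275), of which Cd177 and Cxcr2 passed the filter only through WT. All 3 calls were lost without WT 1, without WT 2 and without TRPV4-KO 2, those of Cd177 and Cxcr2 also without TRPV4-KO 1, and those of S100a8 and Cxcr2 with only the 2 groups compared, at edgeR adjusted p-values of 0.124 to 0.279. Macrophage markers summed to 1724 to 1992 CPM in WT livers and 511 to 1257 CPM in the other 6. All 12 had log2 fold changes above 0 in both contrasts with WT, and 0 were called by edgeR, with 10 below an unadjusted p of 0.05 for WT over TRPV4-KO (17.1% of all genes) and 8 for WT over GSK219 (8.22%). The part of these cells in the SAA difference was not tested.

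Markers of the other cells showed no calls in the livers. Median log2 fold changes for WT over TRPV4-KO were 0.34 for ductal epithelium (9 tested), 0.86 for stellate cells and fibroblasts (15), -0.11 for mesothelium (7), 0.44 for adipocytes (3), 0.36 for acinar cells (2) and 0.43 for endothelium (6). By edgeR these held 1, 7, 0, 0, 1 and 3 genes below an unadjusted p of 0.05, against 17.1% of all genes. The list of inflammatory fibroblast genes cannot be read as a marker of fibroblasts in liver, since Hp, C3 and Lcn2, also on the acute-phase list, made up 95.8% to 98.2% of its sum. Of its 9 tested genes 0 were called and 6 were below an unadjusted p of 0.05, with a median of 1.03. Mesothelial markers, from cells known to make Saa3, summed to only 4.96 to 13.7 CPM.

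**Figure D4:**
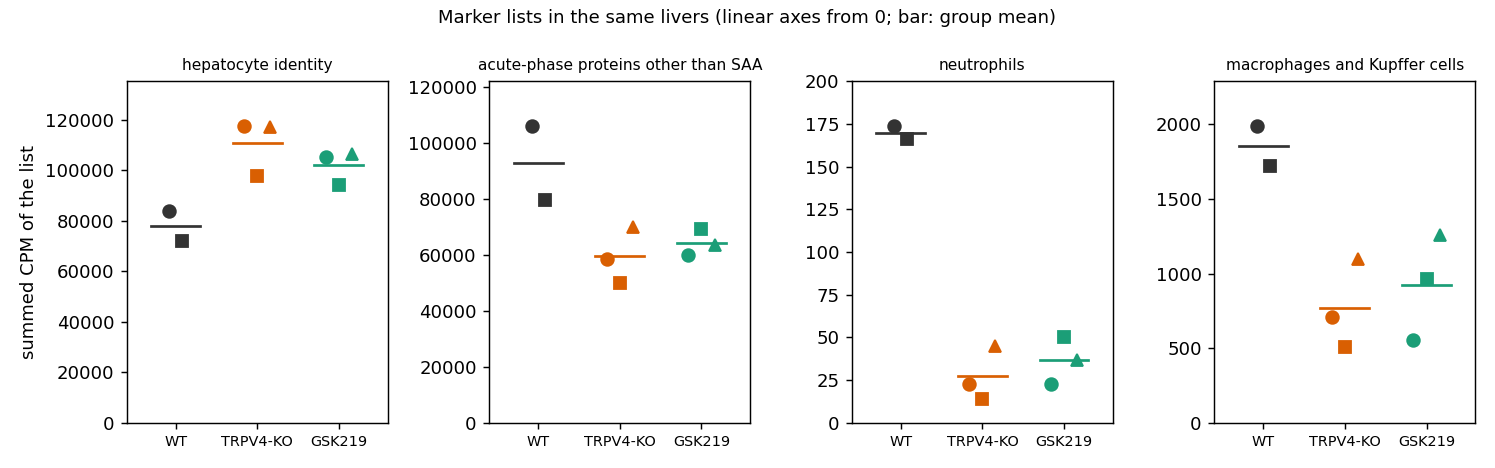
Summed CPM of 4 gene lists in the 2 WT, 3 TRPV4-KO and 3 GSK219 livers, with points for livers, bars for group means and linear axes from 0. Neutrophil sums are 166 to 174 CPM in WT and at most 50.02 CPM elsewhere, while hepatocyte sums are lowest in WT.

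Among the genes most like Saa1 plus Saa2 over the 8 livers, by Pearson correlation of log2 CPM out of 13213 genes, were Naalad2 (0.98), Cyb561 (0.97), Cpb2 (0.97) and Skap2 (0.97). For Saa3 they were Gnaq (0.95), Rpl23a-ps3 (0.94), Stap1 (0.94), Mgat4b (0.94) and Pbdc1 (0.94). The lists shared no gene. Saa1 plus Saa2 had a correlation of 0.74 with Saa4 and 0.17 with Saa3, and the 8 livers share the 3 groups, so these values describe the groups as much as the genes.

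In PSCs, where Saa3 is a gene of inflammatory fibroblasts, the question was whether PIEZO1 activation changed it. Saa3 was lower with Yoda1 in all 3 preparations, which also differed among themselves. In deposited scaled reads it was at 577 with DMSO and 496 with Yoda1 in preparation 1, at 905 and 608 in preparation 2 and at 183 and 99.4 in preparation 3, which is 14.1%, 32.8% and 45.6% lower. The DMSO cultures spanned 4.95-fold and the Yoda1 cultures 6.12-fold, and the groups overlapped. Of all genes tested, 29.4% were lower with Yoda1 in all 3 preparations.

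Saa3 was not called with Yoda1, where 1.01% of genes were. Its difference on the log2(value + 1) scale was -0.55 ± 0.91 (SE, limma adjusted p = 0.757). With the preparation as a block it was -0.55 ± 0.15 (95% interval -0.98 to -0.12, limma adjusted p = 0.117), in a fit that called 1.51% of genes. The blocked difference passed an adjusted p of 0.05 in other fits run after the data were seen, limma with a trend of the variance on the level (0.0405) and edgeR on recovered reads (0.0397), without reaching a log2 fold change of 1. Passing that adjusted p thus depended on the model of the variance. Leaving out the Yoda1 culture of preparation 3 alone, which left its low DMSO culture without a partner, turned the unblocked difference to 0.26. Within the 3 preparations the log2 differences were -0.22, -0.57 and -0.87.

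**Figure D5:**
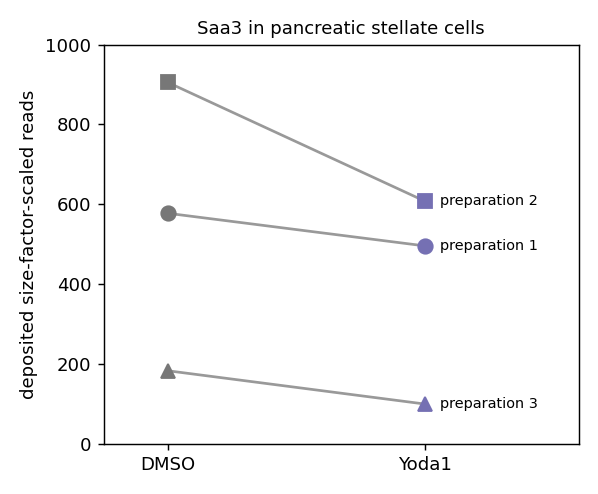
Saa3 in deposited size-factor-scaled reads (linear axis from 0) for 3 PSC preparations with DMSO and Yoda1, with a line joining the cultures of a preparation. All 3 lines slope down, from 577 to 496, 905 to 608 and 183 to 99.4, and preparation 3 lies below both others in each treatment.

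Of 15 markers of stellate cells and fibroblasts, 13 were analysed in the PSCs, without the stellate markers Gfap and Lrat. Their sum, which includes collagen and actin genes shared with other fibroblasts, was 1015860 to 1112490 with DMSO and 501516 to 616140 with Yoda1, where 3 of 13 tested were called lower, against 1.01% of all genes in either direction (Tagln, Col3a1 and Acta2, genes of contractile and matrix-forming cells, at -1.22, -1.19 and -1.70, limma adjusted p = 0.0199, 0.0108 and 0.0383). Of the 13, 11 had an unadjusted limma p below 0.05, against 20.9% of all genes. In the list 4 had a log2 fold change above 0, the largest being that of Reln (1.56, limma adjusted p = 0.106). Another was the fibroblast receptor gene Pdgfra, chosen after its values were seen (0.87, limma adjusted p = 0.0973). With the preparation block Acta2 lost the call (limma adjusted p = 0.0518), and on leaving out single libraries Tagln and Acta2 lost it in 5 of 6 cases and Col3a1 in 4 of 6. Of 19 inflammatory fibroblast genes other than Saa3, 0 were called by limma, 8 had an unadjusted p below 0.05 (20.9% of all genes) and the median was -0.12. Preparation 3, lowest in Saa3, had the lowest mesothelial sum (9531 and 12929, against 17484 to 18909 in the others) and the highest sums of acinar (6695 and 13243, against 1136 to 4817) and ductal epithelial markers (120022 and 170285, against 84092 to 101720). Their part in the Saa3 levels was not tested. In the mesothelial list the keratin gene Krt14 was called lower (-2.13, limma adjusted p = 0.0207), while 3 of 8 had a log2 fold change above 0. One of these was the mesothelin gene Msln, chosen after its values were seen, which was higher with Yoda1 in all 3 preparations and missed only the fold threshold (0.96, limma adjusted p = 0.0285). Elsewhere the scavenger receptor gene Cd36 (1.18, adjusted p = 0.0415) and the osteopontin gene Spp1 (1.71, adjusted p = 0.0315) were called higher. On leaving out single libraries the call was lost in 4 of 6 cases for Krt14 and in 6 of 6 for Cd36 and Spp1, and for Cd36 also without the filter on low values (limma adjusted p = 0.0535). The other lists held no gene called in the PSCs.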

How the data were processed

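RNA sequencing of 8 livers and 6 PSC cultures was analysed. Reads were handled with Trim Galore and HISAT2 2.0.5 according to the submitters' processing notes, and the counter is not given in the sources used here. The liver table holds counts per gene as deposited by the authors, with the gene length they gave, and 7 of its per-sample columns matched no sample and were not used. The PSC table holds a signal deposited by the authors, gene reads divided by 1 size factor per library. All 98886 values were whole multiples of a step (100%, within 0.02), which gave 27312894 to 39070539 reads per library, and the authors' columns of log2 fold change, error, statistic and p-values for Yoda1 were not used. For 1 library the step was close to 1, so that its reads rest on the step alone. Yoda1 time was given as 24 hours in the methods and 72 hours in a legend.

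Livers were fitted in edgeR 4.0.16 (R 4.3.3; quasi-likelihood, robust, TMM, minimum count 10, all 8 livers) with Benjamini-Hochberg adjustment. PSCs were fitted in limma 3.58.1 on log2(value + 1), which understates changes of low genes, over 15145 genes that reached 10 in 3 or more libraries. edgeR on the recovered reads was an alternative and called 224 genes. The limma fit has no trend of the variance on the level. The design named no trend setting, and fits with and without it had both been seen, with the p of Saa3, before the fit without it was kept, so this choice was not blind. Cultures of a preparation pair by their labels, and their deviations correlated at 0.26 to 0.53. DESeq2 1.42.0 was an alternative. Ratios had 0.5 added. Both fits were tested on simulated data. The labels call samples biological replicates, and no replicate pair of livers agreed within sampling noise.

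Named genes were the 4 members, Trpv4, other Saa symbols, neighbors, called list genes, main steps of SAA induction and carriage, and the 5 most correlated genes, of which 1 is not reported here. Members and lists were chosen with earlier results of these data known.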

Additional observations from a re-analysis of the deposited data

How the results depend on the processing

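Depth did not limit Saa1, Saa2 or Saa4, but only 2 WT livers enter the contrasts with WT, and Il6 is near the count floor.

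Called members for WT over TRPV4-KO went from 1 to 2 with DESeq2, with the sex-read term and with only the 2 groups compared, to 0 without the low-count filter, and from 0 to 2 over single livers left out. For WT over GSK219 they went from 0 to 2 with DESeq2, and from 0 to 2 over livers left out. The replicate number block left 0 called for WT over TRPV4-KO, with 429 genes called in all. The labels give no pairing by liver number, and deviations of same-numbered livers correlated at -0.59 to 0.68. All livers numbered 2 had Y-linked reads and those numbered 3 had Xist reads, so the block overlapped in part with the sex-read split.

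The summed Saa1 and Saa2 difference kept its direction, at 3.46 to 3.87 over livers left out, where 4 of 5 lost the call (edgeR adjusted p = 0.148 to 0.35), and also lost it at 3.63 without the filter (edgeR adjusted p = 0.105) and at 3.46 with the replicate block (0.0541). Saa3 turned to -0.049 with the sex-read term for WT over TRPV4-KO. Over livers left out it ran from -0.50 (without WT 1) to 0.65 for WT over TRPV4-KO and from -0.24 (without WT 1) to 0.92 for WT over GSK219. In PSCs the unblocked Saa3 difference ran from -1.21 to 0.26 (without Yoda1 3) over single libraries left out, each of which broke a pair.

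Of all genes, calls for WT over TRPV4-KO went from 40 to 482 (DESeq2), 140 (no filter), 325 (sex-read term) and 20 (2 groups), and to 3 to 722 over livers left out, the highest without TRPV4-KO 3. For WT over GSK219 they went from 0 to 72 (DESeq2), 8 (no filter), 9 (replicate block), 4 (sex-read term) and 2 (2 groups), and 0 to 2 over livers left out. For TRPV4-KO over GSK219 they went from 15 to 92 (DESeq2), 38 (no filter) and 34 (sex-read term), and 8 to 79 over livers left out. In PSCs they went from 153 to 355 (no fold threshold), 236 (variance trend) and 449 (trend with replicate block), and 0 to 76 over libraries left out. The replicate block alone gave 229. The variance trend, and edgeR with the block on recovered reads (471 genes), were added after the data were seen.

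The exact permutation p for Saa1 plus Saa2 against Saa3 was 0.0571 with Saa1 alone and 0.689 with Saa4 in place of the pair, and 0.00952 to 0.1 over livers left out. For Saa1 plus Saa2 it was 0.00952 to 0.0762, for the Saa2 to Saa1 ratio 0.00952 to 0.1, and for Saa4 0.00952 to 0.171 over livers left out and 0.0464 without TMM (exact permutation tests). The cause was not tested for any of these changes.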
